A study of Mus musculus with 13 samples.

Results

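Serum response factor (SRF) and genes of the actin cytoskeleton were followed in C2C12 cells, an established line of mouse skeletal muscle precursors (myoblasts), as the cells came out of serum starvation. The set held 37 genes of 18193 with a value, and 85 probe sets of 45037. A probe set (a group of array probes read as 1 value) entered where the platform annotation named that gene and no other, and the value of a gene was the mean log2 ratio over its probe sets. Of the members, 16 had 1 probe set and 21 had several, at most 7.

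The cells had been grown close to confluence in flasks set up in parallel, kept for a day in medium with very little serum and returned to serum, per the series' design text. RNA was taken at 13 times, from 0 to 6.0 h in steps of 0.5 h, and each time had 1 Affymetrix mouse expression array and no replicate. No group carried a transgene, mutation or drug, and all shared the starvation. The study searched this course for oscillating genes.

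The deposited values are ratios of each probe set to a reference that the labels do not state. A log2 ratio of 0 is therefore a different level for each gene, so levels were compared only within a gene. Median ratios per array lay between 0.977 and 1.0. The SD of the log2 ratio over probe sets lay between 0.188 and 0.318 per array, with the widest spread at 0 h, the array that every change from 0 h rests on.

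SRF is a transcription factor that binds the CArG box, a short DNA element that opens with CC, closes with GG and holds only A and T between. It works with either of 2 families of cofactor. Myocardin-related factors (MRTFs) are held back by monomeric actin and are freed when serum drives actin into filaments. Ternary complex factors (the Elk proteins) are switched on by MAP kinase and bind an Ets motif such as CCGGAA beside the box. Many SRF targets encode actins and the proteins that bind, cross-link, anchor and pull on actin filaments.

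Promoter windows are shown first, since CArG boxes are how SRF reaches its targets. RefSeq windows of mouse build GRCm38.p6, each of 300 bases with 250 before and 50 after the start of the gene, were found for 33 of the 37 members. Actb, Actg2, Tagln and Tgfb1i1 were not matched. A perfect CArG box on either strand lay in the windows of 8 of 33 members (24.2%), against 488 of 27025 genes (1.81%). The members were chosen as SRF and actin cytoskeleton genes, where many SRF targets lie, so this difference is no independent result. Below, the box is in capitals with 20 bases on each side, read 5′ to 3′ along the strand of the gene.
Srf: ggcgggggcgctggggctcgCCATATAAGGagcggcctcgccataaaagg
Fhl2: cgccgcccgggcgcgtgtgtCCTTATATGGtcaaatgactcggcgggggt
Vcl: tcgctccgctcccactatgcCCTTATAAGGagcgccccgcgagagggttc
Filip1l: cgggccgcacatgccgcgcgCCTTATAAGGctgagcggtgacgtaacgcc
Actg1: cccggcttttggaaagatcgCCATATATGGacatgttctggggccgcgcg
Cnn2: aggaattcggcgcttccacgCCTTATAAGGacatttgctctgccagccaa
Myl9: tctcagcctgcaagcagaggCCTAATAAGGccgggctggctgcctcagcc
Fhl1: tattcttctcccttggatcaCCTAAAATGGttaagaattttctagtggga

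The printed stretches lie at chr17:46556215-46556264 (Srf, minus strand), chr1:43163963-43164012 (Fhl2, minus), chr14:20929151-20929200 (Vcl, plus), chr16:57549160-57549209 (Filip1l, plus), chr11:120348556-120348605 (Actg1, minus), chr10:79988524-79988573 (Cnn2, plus), chr2:156775283-156775332 (Myl9, plus) and chrX:56779561-56779610 (Fhl1, plus). Srf held a pair of boxes, with first bases at -82 and -62 from its start, and the second of them stands in lower case at the end of its line. Fhl2 held 1 box in each of 2 promoter windows, at -31 (shown) and at -96. In the other genes the box began at -227 (Vcl), -62 (Filip1l), -90 (Actg1), -56 (Cnn2), -161 (Myl9) and -102 (Fhl1). Vcl, Filip1l and Cnn2 had the same CCTTATAAGG core.

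A box with exactly 1 mismatch lay in the windows of 12 of 33 members (36.4%), against 22.5% of all genes. The windows of Acta2, which encodes smooth muscle alpha actin, held no perfect box and 2 with 1 mismatch, of which the one at -84 is shown (chr19:34255428-34255477, minus strand).
Acta2: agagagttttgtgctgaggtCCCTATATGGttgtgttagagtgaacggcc
The Ets motif CCGGAA, searched on both strands, was in the windows of Srf, Fhl1 and Cfl1, which are 3 of 33 members (9.09%), against 16.7% of all genes. No CCGGAA overlapped a perfect CArG box in these genes. A match describes the letters in a window and not a bound site.

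Members fell mainly into an early and a late class. The highest of the 13 values lay on an early array (0.5 to 2.0 h) in 13 of 37 members (35.1%, against 25.3% of all genes), on a middle array (2.5 to 4.0 h) in 1 (2.7%, against 25.9%), on a late array (4.5 to 6.0 h) in 19 (51.4%, against 30.5%) and at 0 h in 4 (10.8%, against 18.3%). The lowest value lay at 0 h in 16 members (43.2%, against 12.2%). Members with a perfect CArG box numbered 4 of the 11 early members with a promoter window (Srf, Fhl2, Filip1l and Vcl) and 4 of the 17 late ones (Fhl1, Actg1, Cnn2 and Myl9). The class is a description of where the maximum lies, and in flat genes such as Actg1 it rests on very small differences.

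**Figure D1:**
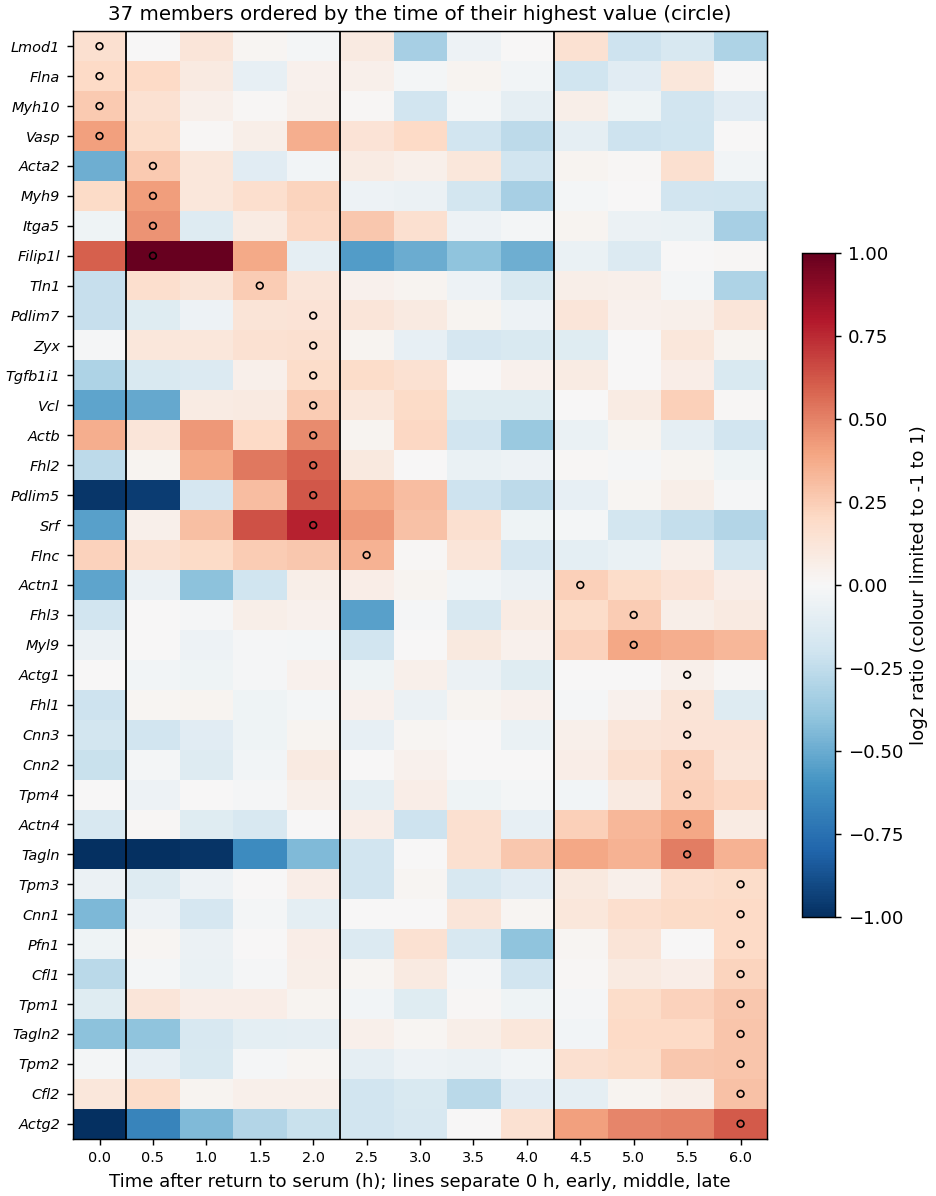
Log2 ratio (colour, limited to -1 to 1) of the 37 members, 1 row per gene, at each of the 13 times in hours after the return to serum, with rows ordered by the time of the highest value (circle). Lines separate 0 h from the early, middle and late arrays; 13 members have their circle in the early window, 1 in the middle and 19 in the late window.

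Change was tested with limma on the log2 ratios of all 18193 genes in 1 fit of the window means (1 array at 0 h and 4 in each window), with Benjamini-Hochberg adjustment over all genes and an adjusted p under 0.05 as the threshold. Neighbouring times stand in for replicates here, so the tests set a difference of window means against the spread within windows. That spread includes any trend in time within a window, and no variation between repeated cultures. Early against 0 h and late against 0 h share the single 0 h array, which is assumed to vary like the others.

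Between 0 h and the early window, the factor and its LIM-domain cofactor rose, and the actin genes differed. In all, 5 of 37 members rose and 0 fell (13.5%), where 3.26% of all genes passed and 1.46% of all genes passed upward. Those that rose were Srf, Fhl2, Acta2, Actg2 and Cnn1. Of the 4 actins, Actb (-0.05) and Actg1 (-0.01) did not rise, and the rise of Acta2 came from 1 of its 3 probe sets. The median change was 0.19 over the members and -0.03 over all genes, and 26 members had a positive change. The 8 blood and endothelial markers, genes of other cell types, also lay lower on the 0 h array: all 8 changes were positive, with a median of 0.24, and none passed. Their mean log2 ratio was -0.27 at 0 h and -0.05 to -0.01 on the early arrays, and the part of this shift in the rise of the members was not tested. In 21 members (56.8%) all 4 early arrays lay above the 0 h array, as they did in 22.3% of all genes.

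Srf itself, whose own promoter carries the boxes shown above, stood at -0.54 at 0 h and at 0.05, 0.30, 0.64 and 0.77 on the 4 early arrays. It then stood at 0.43, 0.29, 0.16 and -0.04 in the middle window (2.5 to 4.0 h), and ended with -0.02, -0.18, -0.24 and -0.29 in the late one. The values climbed without a break to 2.0 h, at 2.47 times the 0 h ratio, and then declined, and no late value reached an early one. The early mean lay 0.98 ± 0.21 (SE) above 0 h on the log2 scale (limma adjusted p = 0.0282), and the late mean lay 0.62 below the early mean (-0.62 ± 0.14, adjusted p = 0.00421). Both of its probe sets rose early, by 1.22 and 0.73.

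Fhl2, a LIM-domain protein known to bind SRF and to be one of its targets, followed nearly the same course. It read -0.26 at 0 h, then 0.03, 0.38, 0.53 and 0.59 on the early arrays, 0.10, 0.00, -0.07 and -0.05 in the middle window, and 0.01, -0.01, 0.03 and -0.04 in the late one. Its maximum at 2.0 h was 1.80 times the 0 h ratio, and the drop came within 0.5 h of it. It rose by 0.64 ± 0.15 from 0 h to the early window (adjusted p = 0.0349) and changed by -0.39 ± 0.09 from early to middle (adjusted p = 0.0105). The late arrays were all below the early ones, though its values at 0.5 and 5.5 h both round to 0.03 (-0.38 ± 0.09, adjusted p = 0.00928).

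The other regulators moved less. Fhl1 and Fhl3, LIM-domain relatives of Fhl2, ranged from -0.21 to 0.13 and from -0.54 to 0.25, the latter with its low at 2.5 h, and neither passed any of the tests. Tgfb1i1 (Hic-5), an adhesion protein that can also act in the nucleus, went from -0.31 at 0 h to 0.18 at 2.0 h and passed only the test of a smooth course described further on.

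None of the 5 early calls held under every alternative. Under quantile normalization, which gives all arrays the same spread, 45 genes and 0 members passed, and with the early window cut to 1.5 h, 250 genes and 0 members. Without the 1.5 h array 1 member, Acta2, remained past the threshold, as Srf (adjusted p = 0.0553) and Cnn1 (0.0625) missed it there. Fhl2 missed it without 1.0, 1.5, 2.0, 5.0 or 5.5 h (0.051 to 0.0673), Acta2 without 1.0, 3.0, 3.5, 4.5, 5.0 or 5.5 h (0.0507 to 0.0723) and Actg2 without 1.0, 1.5, 2.0, 3.5, 4.5, 5.0 or 5.5 h (0.0509 to 0.0764). Without the 0.5 h array 8 members passed, with Tagln (1.00, adjusted p = 0.00543), Vcl (0.67, adjusted p = 0.00924) and Pdlim5 (1.22, adjusted p = 0.0141) added.

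Vcl and Pdlim5, which act where actin filaments are anchored, stood at 0.5 h about where they had been at 0 h and were higher from 1.0 h on. Vinculin (Vcl), a linker between integrin-bound talin and actin, was at -0.53 at 0 h and still at -0.51 at 0.5 h, and reached 0.08, 0.09 and 0.25 at 1.0, 1.5 and 2.0 h. It held 0.11, 0.19, -0.12 and -0.12 from 2.5 to 4.0 h, and the late values were 0.00, 0.08, 0.24 and 0.01. The step between 0.5 and 1.0 h placed the 0.5 h array with the 0 h array, and the early change of 0.51 ± 0.21 did not pass (adjusted p = 0.194).

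Pdlim5 (Enigma homologue), a PDZ and LIM scaffold that binds alpha-actinin, made the same step on a larger scale. It read -0.97 and -0.95 at 0 and 0.5 h, then -0.17, 0.31 and 0.62 to 2.0 h, 0.38, 0.31, -0.21 and -0.26 in the middle window, and -0.08, 0.02, 0.06 and -0.01 in the late one. Its peak was 3.00 times the 0 h ratio. The early change was 0.92 ± 0.40 (adjusted p = 0.211), with early values from -0.95 to 0.62, and all 7 probe sets changed upward, by 0.68 to 1.25. Between the early and middle windows the changes of the 7 ran from -0.32 to 0.60.

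Talin 1 (Tln1), which links integrins to actin, differed between its probe sets, as given further on. As a mean it read -0.23 at 0 h and 0.12 to 0.25 on the early arrays (0.39 ± 0.12, adjusted p = 0.0965). Zyxin (Zyx), a LIM protein of adhesions and stress fibres, was near flat to 2.0 h at -0.01 to 0.16 and fell by 0.22 to the middle window (-0.22 ± 0.06, adjusted p = 0.0168). Integrin alpha 5 (Itga5), a chain of the fibronectin receptor, peaked at 0.45 at 0.5 h and ended at -0.33 at 6.0 h, and passed no test. Pdlim7, another PDZ and LIM scaffold, stayed between -0.23 and 0.14. Vasp, which promotes filament elongation, was highest at 0 h (0.41) and lay between -0.21 and 0.00 on the late arrays (late against 0 h, -0.53 ± 0.16, adjusted p = 0.0372).

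Filip1l was high from 0 to 1.0 h and then fell. It is related by name and sequence to the filamin-binding protein FILIP1, and its window holds the CCTTATAAGG core. It was at 0.60 at 0 h, at 1.03, 1.01, 0.38 and -0.09 on the early arrays, at -0.56, -0.50, -0.40 and -0.49 from 2.5 to 4.0 h, and at -0.07, -0.14, 0.00 and 0.01 from 4.5 to 6.0 h. Every middle value was below every early value, while the late values overlapped the 2.0 h value. The middle window lay -1.07 ± 0.18 from the early one (adjusted p = 0.00126), and the late window -0.63 ± 0.18 (adjusted p = 0.0223).

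**Figure D2:**
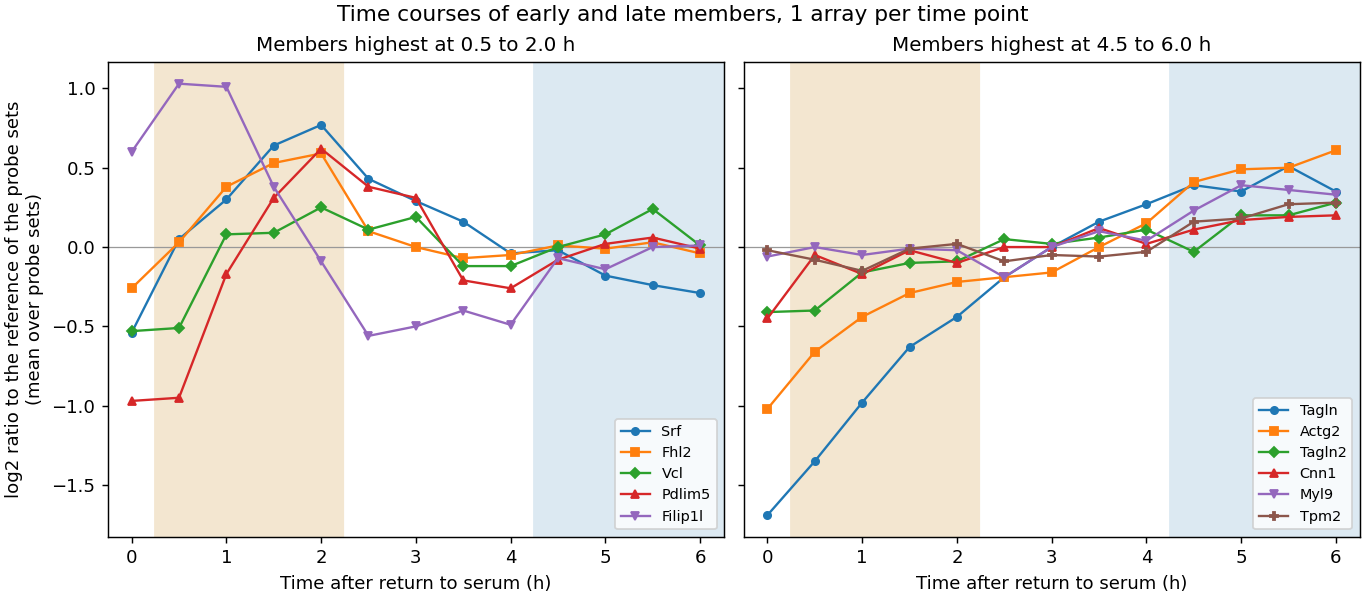
Log2 ratio of 5 members that peak early (left) and 6 that peak late (right) at each time in hours after the return to serum, 1 array per point, with the early window shaded tan and the late window blue. Srf, Fhl2, Vcl and Pdlim5 reach their highest value at 2.0 h, while Tagln climbs from -1.69 at 0 h to 0.51 at 5.5 h.

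From the early to the middle window 9 members passed (24.3%, against 22.2% of all genes), 3 upward (7.74% of all genes) and 6 downward (14.4%). Those that rose were Tagln (0.91 ± 0.15, adjusted p = 0.00123), Actg2 (0.35 ± 0.10, adjusted p = 0.017) and Tagln2 (0.25 ± 0.08, adjusted p = 0.0334). Those that fell were Filip1l, Myh9, Fhl2, Zyx, Cfl2 and Actb, with changes from -1.07 to -0.22. Both the share of members called and their median change (-0.04, against 0.00) were close to those of all genes. All middle arrays lay above all early arrays in 4 members (10.8%, against 8.03% of all genes) and below them in 6 (16.2%, against 15.0%). With the early window cut to 1.5 h, 2284 genes and 3 members (Actg2, Filip1l and Tagln) passed. Single arrays also decided calls: Actg2 missed the threshold without 4.0 h (adjusted p = 0.0552), Zyx without 3.5 h (0.0521), Cfl2 without 0.5 or 3.5 h (0.0585 and 0.0649), Actb without 1.0, 2.0, 3.5 or 4.0 h (0.0555 to 0.0682) and Tagln2 without 0.5, 1.0, 2.5, 3.5 or 4.0 h (0.053 to 0.0896).

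Between the early and late windows the set split. In all, 16 of 37 members passed (43.2%, against 21.0% of all genes), 10 upward (11.7% of all genes) and 6 downward (9.29%). The upward group held Actg2, the transgelins and calponins (Tagln, Tagln2, Cnn1, Cnn2 and Cnn3), both non-muscle alpha-actinins, Tpm2 and the myosin light chain Myl9. The downward group held Srf, Fhl2, Actb, Myh9, Flnc and Filip1l. The median change was 0.04 over the members and 0.02 over all genes. Counted without the test, all 4 late arrays lay above all 4 early arrays in 10 members (27.0%, against 14.1% of all genes). These were the upward group with Fhl3 in place of Cnn2. All 4 late arrays lay below all 4 early ones in 8 members (21.6%, against 11.1%), with Zyx, Tln1 and Vasp beside 5 of the called genes.

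Tagln (transgelin, or SM22), a calponin-family protein of actin filaments and a long-used SRF reporter gene, changed most. It was at -1.69 at 0 h, at -1.35, -0.98, -0.63 and -0.44 on the early arrays, at -0.19, 0.00, 0.16 and 0.27 from 2.5 to 4.0 h, and at 0.39, 0.35, 0.51 and 0.35 from 4.5 to 6.0 h. Each of the first 9 steps went up, and the windows did not overlap. The late mean was 1.25 ± 0.15 above the early mean (adjusted p = 6.85e-05) and 2.09 ± 0.24 above 0 h (adjusted p = 0.000223), a 4.25-fold difference. The early part of this rise was 0.83 ± 0.24 and did not pass (adjusted p = 0.0742).

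Actg2, smooth muscle gamma actin, rose over the whole course. It read -1.02 at 0 h, then -0.66, -0.44, -0.29 and -0.22, then -0.19, -0.16, 0.00 and 0.15, and finally 0.41, 0.49, 0.50 and 0.61. No step went down, and the highest value was the last. The late mean lay 0.91 ± 0.10 above the early mean (adjusted p = 3.03e-05) and 1.53 ± 0.15 above 0 h (adjusted p = 0.000126), which is 2.88-fold. The early rise was 0.62 ± 0.15 (adjusted p = 0.0407).

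The other transgelin and the calponins rose by less. Tagln2, the transgelin of non-muscle cells, read -0.41 at 0 h, -0.40, -0.16, -0.10 and -0.09 early, 0.05, 0.02, 0.06 and 0.11 in the middle, and -0.03, 0.20, 0.20 and 0.28 late (late against early 0.35 ± 0.08, adjusted p = 0.00449). Its 3 probe sets gave 0.33 to 0.37. All late arrays lay above all early ones.

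Calponin 1 (Cnn1), an inhibitor of actomyosin ATPase typical of smooth muscle, read -0.45 at 0 h, -0.17 to -0.02 early, 0.00 to 0.12 in the middle and 0.11, 0.17, 0.19 and 0.20 late. It passed upward early (0.36 ± 0.08, adjusted p = 0.0309), again late against early (0.25 ± 0.05, adjusted p = 0.00276) and late against 0 h (0.61 ± 0.08, adjusted p = 0.000444). Cnn2 and Cnn3, the non-muscle calponins, rose late against early by 0.17 ± 0.06 (adjusted p = 0.0451) and 0.19 ± 0.06 (adjusted p = 0.0258). Late values of Cnn2 (0.07 to 0.23) overlapped its 2.0 h value of 0.09, and its call was lost when each array was centred on its median (0.16, adjusted p = 0.0508). Lmod1, a leiomodin that nucleates actin filaments, passed no test at -0.33 to 0.16.

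**Figure D3:**
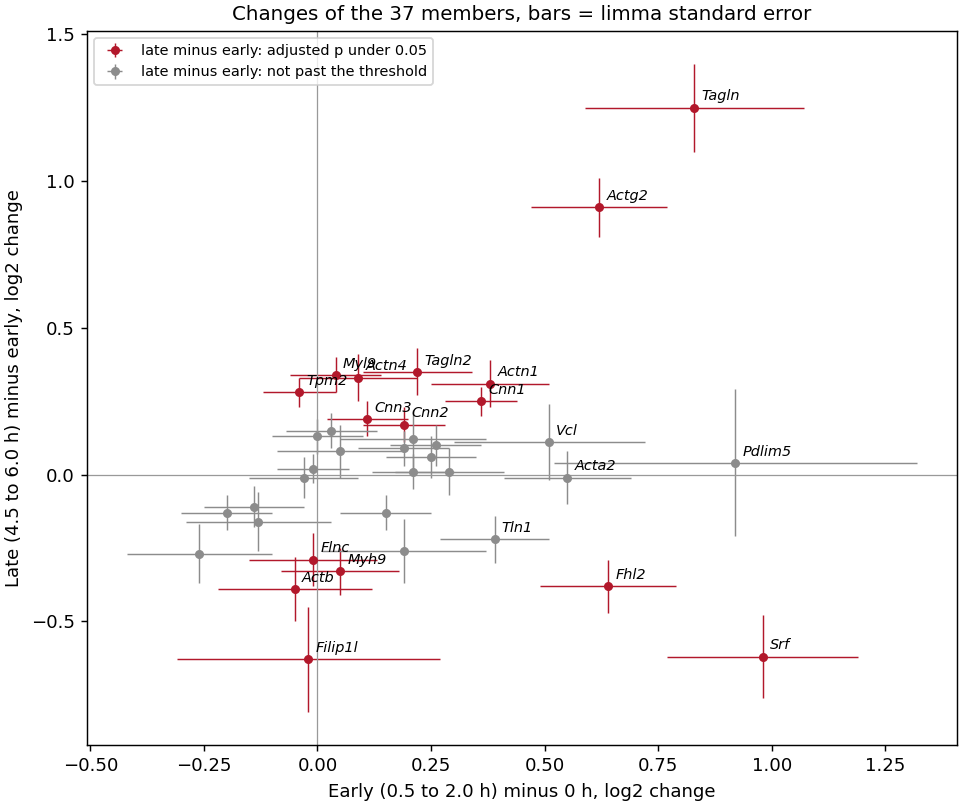
Log2 change from 0 h to the early window (horizontal) against the change from the early to the late window (vertical) for the 37 members, with bars giving the limma standard error; red marks the 16 genes past the threshold for late against early. Both axes use the 4 early arrays; Tagln and Actg2 lie high on both, while Srf and Fhl2 are high on the first and below 0 on the second.

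Tropomyosins, the coiled-coil proteins that lie along the filament, had 1 gene past the threshold between windows, Tpm2. It was at -0.02 at 0 h, at -0.15 to 0.02 early, at -0.09 to -0.03 in the middle and at 0.16, 0.18, 0.27 and 0.28 late. The gene rose by 0.28 ± 0.05 (late against early, adjusted p = 0.00145), and its 4 probe sets gave 0.24 to 0.31. Tpm1, Tpm3 and Tpm4 had changes of 0.09, 0.15 and 0.13 late against early that did not pass, and each had its highest value at 5.5 or 6.0 h. Tpm1 also passed the test of a smooth course (F = 6.34, adjusted p = 0.0137).

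Myosin genes went in opposite directions. Myl9, the regulatory light chain of smooth muscle and non-muscle myosin, was near its reference to 4.0 h (-0.19 to 0.10) and then at 0.23, 0.39, 0.36 and 0.33, so that the late arrays stood above every earlier one. It rose by 0.34 ± 0.06 (late against early, adjusted p = 0.00125). Myh9, the heavy chain of non-muscle myosin IIA, read 0.19 at 0 h, 0.42, 0.11, 0.17 and 0.22 early, -0.05, -0.06, -0.18 and -0.33 in the middle, and -0.02, 0.00, -0.19 and -0.20 late. It fell by 0.39 to the middle window (-0.39 ± 0.08, adjusted p = 0.0045) and by 0.33 to the late window (-0.33 ± 0.08, adjusted p = 0.00883). Myh10, the IIB heavy chain, was highest at 0 h (0.26) and lay 0.33 lower late (-0.33 ± 0.10, adjusted p = 0.0348).

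Cross-linkers split as well. The non-muscle alpha-actinins Actn1 and Actn4, which bundle filaments at adhesions and stress fibres, rose late against early by 0.31 ± 0.08 (adjusted p = 0.0158) and 0.33 ± 0.08 (adjusted p = 0.0119). Actn1 read -0.53 at 0 h, -0.06, -0.41, -0.20 and 0.06 early, -0.06 to 0.07 in the middle and 0.24, 0.18, 0.14 and 0.07 late, all late values above the early ones. Flnc, the filamin of muscle, was at 0.16 to 0.27 early and at -0.18 to 0.05 late (-0.29 ± 0.09, adjusted p = 0.0279). Flna, the ubiquitous filamin, passed no test at -0.20 to 0.20.

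Of the cytoplasmic actins, 1 was flat and 1 differed between its probe sets. Actg1, whose window holds a CArG box, stayed between -0.12 and 0.05 on all 13 arrays. Actb fell from the early window (0.12 to 0.47) to the middle (-0.37 to 0.21) and late (-0.19 to 0.03) windows, by 0.39 each time (-0.39 ± 0.11, adjusted p = 0.022 and 0.0219). That decline came from 1 of its 2 probe sets. Acta2 read -0.49 at 0 h and 0.26, 0.11, -0.11 and -0.03 on the early arrays. Its early mean rose by 0.55 ± 0.14 (adjusted p = 0.0418), and that change of the mean came from 1 of its 3 probe sets. Among cofilins and profilin, which turn filaments over, Cfl1 was 0.36 ± 0.10 higher late than at 0 h (adjusted p = 0.0266), Cfl2 fell in the middle window (-0.26 ± 0.07, adjusted p = 0.0214), and Pfn1 passed no test at -0.40 to 0.20.

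Late against 0 h, 13 of 37 members passed (35.1%, against 18.7% of all genes), 11 upward (8.8% of all genes) and 2 downward (9.9%). The 11 were Tagln, Actg2, Cnn1, Actn1 (0.69 ± 0.13, adjusted p = 0.00301), Tagln2, Acta2, Actn4, Myl9, Cnn2, Cfl1 and Cnn3, and the 2 were Vasp and Myh10. Srf was not among them, with late values of -0.29 to -0.02 against -0.54 at 0 h. All 12 later arrays lay above the 0 h array in 16 members (43.2%), against 12.1% of all genes. Under quantile normalization 1902 genes and 8 members passed.

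The courses were also tested without windows, by a moderated F test on a cubic spline in time (4 degrees of freedom). By it 26 of 37 members passed (70.3%, against 38.0% of all genes). Tagln (F = 286, adjusted p = 1.46e-09), Actg2 (F = 158, adjusted p = 6.84e-09) and Srf (F = 60.9, adjusted p = 5.92e-07) had the largest F among members. Pdlim5 (F = 18.6, adjusted p = 0.000164) and Vcl (F = 9.98, adjusted p = 0.00246), which missed the early threshold, passed here. Of these 26 calls, 11 held under every alternative and 16 whichever array was left out. A straight line in time called 3704 genes, 3342 of them among those of the spline, and 16 members, 15 of them shared. Srf, Pdlim5 and Vcl, each highest at 2.0 h, missed the threshold with a straight line (adjusted p = 0.414, 0.339 and 0.163).

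Of the member calls in the 4 window comparisons, 18 of 43 held under every alternative that was run. For late against early these were 10 of 16: Actg2, Actn1, Actn4, Cnn1, Myh9, Myl9, Srf, Tagln, Tagln2 and Tpm2. For middle against early they were Filip1l and Tagln, and for late against 0 h Actg2, Actn1, Cnn1, Cnn2, Myl9 and Tagln. Among these genes Actg2, Actn4, Cnn1, Cnn2, Filip1l, Myl9 and Tagln had 1 probe set each. The alternative with 1 probe set per gene could not change their values. Leaving out 0 h likewise left the changes between later windows as they were. Of the 5 probe sets of Myh9, only 1 passed late against early by itself, as given below.

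The other 6 late against early calls rested in part on single arrays or on the window. Filip1l missed the threshold without the 0.5, 1.0 or 5.0 h array (adjusted p from 0.059 to 0.0745), Actb without 1.0, 2.0, 5.5 or 6.0 h (0.0523 to 0.067) and Cnn3 without 0.5, 1.0, 5.0, 5.5 or 6.0 h (0.0609 to 0.0789). Flnc missed it without 1.0, 1.5, 2.0, 4.5, 5.0 or 6.0 h (0.0502 to 0.0831), and Cnn2 without any array but 0, 2.0 or 4.5 h (0.0524 to 0.144). Fhl2 missed it only with the early window to 1.5 h (adjusted p = 0.148). Late against 0 h, Cnn3 and Myh10 missed it without 5.0, 5.5 or 6.0 h (0.0506 to 0.066), Vasp without 4.5, 5.0 or 5.5 h (0.0508 to 0.0697) and Actn4 without 1.0, 4.5, 5.0 or 5.5 h (0.0515 to 0.0807).

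Several members had probe sets that disagreed, and these were picked out after their values were seen. Acta2 rose early by 1.58 on 1444105_at, whose 0 h value was -1.61, against -0.04 and 0.10 on its other 2 probe sets. Actb fell late against early by 0.81 on 1419734_at (-0.81) and stood at 0.04 on 1436722_a_at, whose 13 values lay between -0.13 and 0.06. The 5 probe sets of Myh9 ran from -1.06 on 1440708_at to 0.10 late against early, and 4 of them fell. In a limma fit of all probe sets only 1440708_at passed (adjusted p = 0.00129), with 0.155 to 0.517 on the others.

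Tpm1 on 1456623_at went from -0.20 at 0 h to 1.29 at 0.5 h and ended at -0.44, a late against early change of -0.96, while its other probe sets gave 0.20, 0.44 and 0.70. Tln1 had 1 falling probe set (1457782_at, -0.87), 1 rising (1436042_at, 0.34) and 1 between (1448402_at, -0.13). Pdlim7 ran from -0.28 to 0.52, Cfl2 from -0.18 to 0.33, and Fhl1 gave -0.25 and 0.27. For these genes the mean hides opposed courses, and the transcripts that the probe sets read were not analysed here. When each gene was represented by its most variable probe set, 21 members passed late against early, Tpm1 turned to -0.96 and Cfl2 to 0.33.

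**Figure D4:**
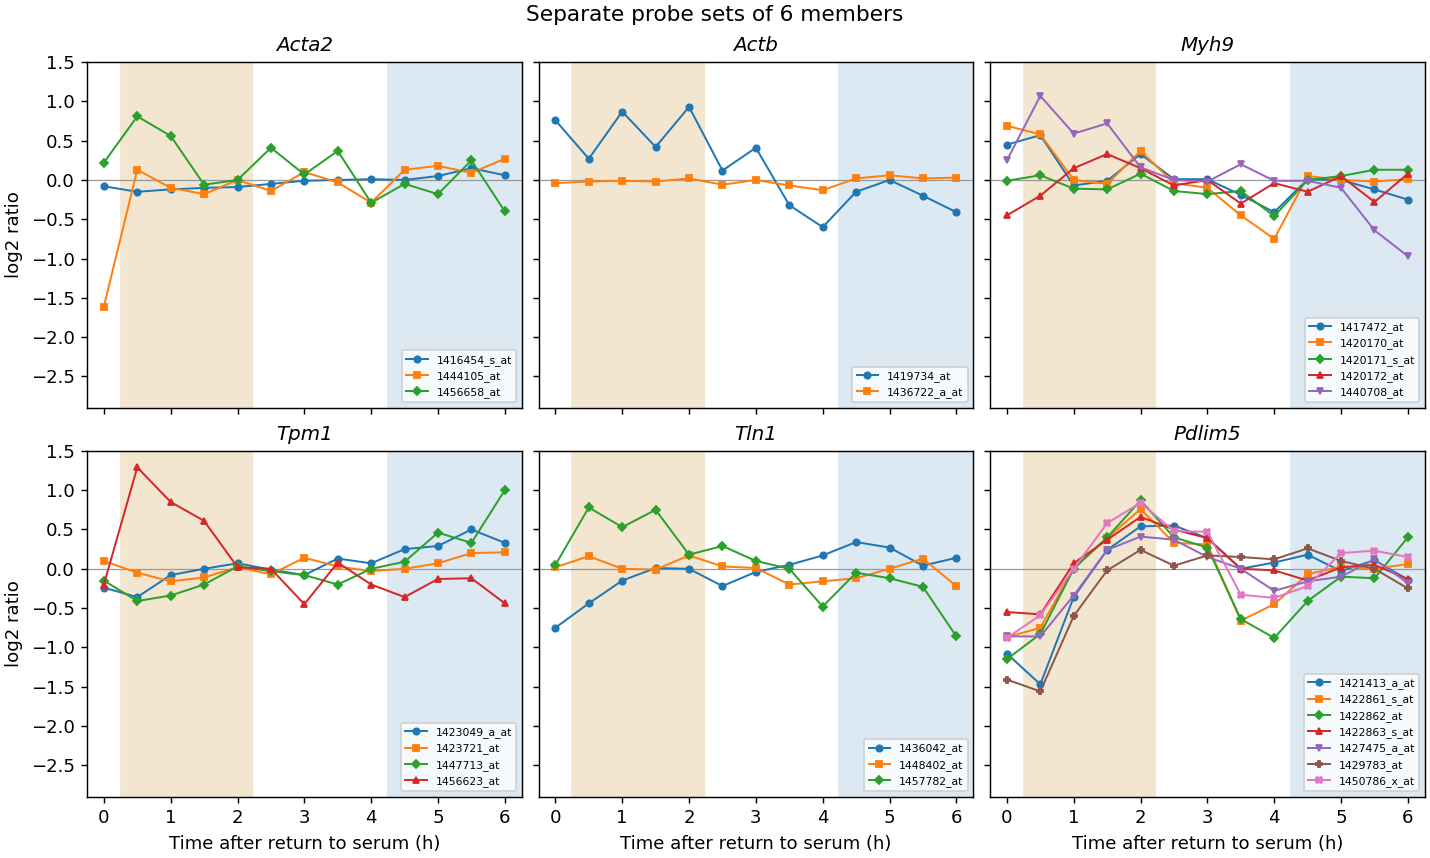
Log2 ratio of each probe set of 6 members at each time in hours after the return to serum, with the early window shaded tan and the late window blue. The early mean lies above the 0 h value in all 7 probe sets of Pdlim5, whereas 1444105_at of Acta2 stands at -1.61 at 0 h only. At 0.5 h 1456623_at of Tpm1 reaches 1.29 while its other probe sets lie below 0.

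Of 6 measured cofactors of SRF (Mrtfa, Mrtfb, Myocd, Elk1, Elk3 and Elk4), 0 passed early against 0 h, where 3.26% of all genes passed. Middle against early and late against early also gave 0, against 22.2% and 21.0% of all genes. Elk4 alone rose late against 0 h (0.30 ± 0.09, adjusted p = 0.0373), which is 16.7%, against 18.7% of all genes. With 6 genes, such counts cannot tell the cofactors from all genes. Mrtfa stood at 0.65 and 0.92 at 0 and 0.5 h, at 0.07 at 1.0 h and at -0.24 at 6.0 h, with a change of -0.72 ± 0.25 late against 0 h (adjusted p = 0.061). Both Elk4 and Mrtfa passed the smooth course (adjusted p = 0.0378 and 0.00685), which is 33.3%, against 38.0% of all genes.

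Other genes of filament assembly numbered 22, of which 3 rose and 4 fell late against early (31.8%, against 21.0% of all genes). Pfn2, a second profilin, fell by 0.73 (-0.73 ± 0.07, adjusted p = 1.52e-05), and Actr3, a subunit of the Arp2/3 complex, rose by 0.28 ± 0.07 (adjusted p = 0.00754). Coro1c, a coronin, was the 1 of these 22 that rose early (0.61 ± 0.12), which is 4.55%, against 3.26% of all genes.

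Of 15 other focal adhesion genes, 2 rose and 6 fell from early to middle (53.3%, against 22.2% of all genes), and 2 rose and 4 fell late against early (40.0%, against 21.0%). Paxillin (Pxn), an adhesion scaffold, fell (-0.54 ± 0.09, adjusted p = 0.000596), and tensin 3 (Tns3) rose (0.37 ± 0.09, adjusted p = 0.0109). Of 10 other contractile genes 4 passed late against early (40.0%, against 21.0%): Csrp2 rose (0.34 ± 0.08, adjusted p = 0.00439), while Myl6 (-0.54), Smtn (-0.35) and Synpo2 (-0.54) fell. The pathway lists and the marker lists share Smtn and Myocd.

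Markers of differentiated muscle moved with the late risers. All 6 rose late against early (Myog, Acta1, Tnnt3, Mylpf, Ckm and Myh3), with a median of 0.37, where 11.7% of all genes passed upward. Late against 0 h only Mylpf and Tnnt3 passed upward (33.3%, against 8.8% of all genes). The mean log2 ratio of the 6 markers was -0.10 at 0 h, -0.28 to 0.04 on the early arrays, -0.10 to 0.07 from 2.5 to 4.0 h, and 0.16 to 0.37 from 4.5 to 6.0 h. Of the smooth muscle markers Myh11, Myocd, Smtn and Ldb3, 0 passed upward and 1 (Smtn) downward late against early (25.0%, against 21.0% of all genes). Their list means were -0.04 to 0.15 early and -0.08 to 0.05 late. Of the 4 fibroblast markers, Col1a1 (-0.35) and Dcn (-0.26) passed downward late against early, where 9.29% of all genes did. Pdgfra (-0.16, adjusted p = 0.0978) and Lum (-0.04, adjusted p = 0.738) did not pass. Of the 6 myoblast and 8 blood and endothelial markers 0 passed in either direction late against early, against 21.0% of all genes. The 18S RNA control probed at its 5′ end had ratios of 0.411 to 1.4 on the early and 0.889 to 5.24 on the late arrays. Its 3′ probe set gave 0.731 to 1.03 early and 0.949 to 1.57 late. A further one (M) gave 0.752 to 1.08 and 0.999 to 1.4. The early and late ranges overlapped on each. The part of these markers and of the 18S signal in the late rise of the members was not tested, and since the values are ratios, no marker's level could be checked. In bulk RNA, more cells of a type and more RNA per cell cannot be told apart.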

How the data were processed

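The authors deposited linear ratios for 45101 probe sets, made with RMA per the submitters' processing notes (no version stated); their reference is not stated in the labels. Ratios carry no absolute level, so dim probe sets could not be filtered, and 3018 (6.701%) were below 1 on every array. Controls (64) were left out, and of 45037 probe sets the 34945 with exactly 1 gene symbol were named (932 had several, 9160 none). Gene IDs of 34741 matched the reference gene table. From the deposited ratios, log2 values were averaged per gene. In R 4.3.3, limma 3.58.1 was run over 18193 genes with two-sided moderated tests (lmFit, eBayes), after it had been tested on simulated data. Python 3.11.15 with numpy 2.4.6, pandas 2.3.3 and, for figures, matplotlib 3.10.9 made the rest. The median residual SD within windows was 0.102 on the log2 scale, and the number of arrays limits the precision. All 37 members are named, and of the other pathway lists, called genes and the 2 largest changes could be named. The members, lists, windows and tests were chosen with earlier results of these data known. Alternatives were quantile normalization, median centring, a variance trend over the mean log2 ratio with robust shrinkage, dropping each array once, 1 probe set per gene, leaving out probe sets under 1 on all arrays, an early window to 1.5 h, a spline with 3 degrees of freedom and a straight line. A further pathway list is not reported here. No batch was modelled, since no label dates the arrays.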

Additional observations from a re-analysis of the deposited data

Results flagged for a closer look

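In 111 groups of 4 arrays (37 members in 3 windows), 3 held an array that stood apart from the other 3 by Dixon's criterion, which chance alone meets in about 1 group in 20. Fhl1 read -0.06 at 3.0 h, with the other middle arrays between 0.03 and 0.04. Cnn2 read 0.04 at 3.0 h, with the others at 0.00. Cfl2 read 0.18 at 0.5 h, with the other early arrays between 0.03 and 0.05. These gaps are small on the log2 scale, and they lie in members that are nearly flat within the window.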

How the results depend on the processing

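No paired analysis was possible because the labels give 1 sample per time and no replicate numbers. Against 594 genes and 5 members, early against 0 h gave 45 genes (84.4% higher, against 44.6%) and 0 members under quantile normalization, and 250 genes and 0 members with the early window to 1.5 h. That window gave 2284 genes and 3 members for middle against early (4033 and 9). Quantile normalization gave 1902 genes and 8 members for late against 0 h (3402 and 13), and a straight line 3704 genes and 16 members (6911 and 26). With 1 probe set per gene, late against early turned from 0.09 to -0.96 in Tpm1 and from -0.01 to 0.33 in Cfl2. The causes were not tested. Leaving out 1 array in turn gave 298 (without 1.5 h) to 1431 genes (without 0.5 h) and 1 to 8 members for early against 0 h. For middle against early it gave 2840 to 4084 genes and 5 to 10 members, for late against early 3103 to 3868 and 12 to 16, for late against 0 h 2783 to 3836 and 9 to 16, and for the smooth course 6023 to 6756 and 20 to 29. Of 43 member calls in the window comparisons, 24 held whichever array was left out. The higher share for middle against early moved from 34.9% to 43.3% under quantile normalization.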

Other observations

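Further genes of the pathway lists changed over the whole course. Late against 0 h, Arpc4 of the Arp2/3 complex (0.70 ± 0.12) and Csrp1, a LIM protein of actin bundles (0.49 ± 0.14), rose, while Gsn, the filament-severing gelsolin (-0.61 ± 0.09), and Coro1b (-0.62 ± 0.09) fell.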
